A study of Mus musculus with 8 samples.

Results

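Transcripts of 10 genes of cellular iron and heme handling were followed in murine megakaryocytes (MKs) that had been cultured alone or together with mesenchymal stem cells (MSCs). The genes were taken by symbol from the table of raw counts and comprised 10 of its 13387 genes. They were the ferritin subunits Ftl1 and Fth1, the ferritin receptor for autophagy Ncoa4, the uptake genes Tfrc, Steap3, Slc11a1 and Slc11a2, the exporter Slc40a1, the regulator Ireb2 and the heme oxygenase Hmox1. All 10 passed the filter on low counts and were among the 11722 genes tested. Their lowest count in any library was 44 and their highest 636669.

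The series asked how MSCs change the transcripts of MKs, and it held 4 bulk RNA-Seq libraries of MKs cultured alone and 4 of MKs cocultured with MSCs. Both groups were primary wild-type C57BL/6 bone marrow cells kept in culture for 18 hours, and the MSCs were sorted as CD45-Ter119-CD31-CD51+CD140a+ cells. The labels give no age, whereas the methods of the study give an age range in weeks for its mice, not by library. The labels describe the RNA as that of MKs freed of platelets, whereas the methods describe sequenced platelets. According to the methods, MKs were enriched with CD41 beads, wells were pooled for each library, and cDNA was made with a full-length low-input kit. A legend of the study counts mice per group for this RNA-Seq, in a description of platelets, whereas the labels tie no library to a mouse. If the libraries were not from separate mice, p-values measure only the spread between these libraries, which may be technical.

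Cells take up transferrin-bound iron through the transferrin receptor, reduce it in endosomes and release it into the cytosol through a divalent metal transporter. Iron that is not used is stored in ferritin, a shell of heavy and light subunits, and is freed again when NCOA4 carries ferritin to lysosomes, while ferroportin is the only known cellular iron exporter. Iron regulatory proteins bind hairpins called iron-responsive elements (IREs) when iron is scarce, which blocks translation of ferritin and ferroportin and stabilizes the transferrin receptor mRNA. The MK lineage needs iron for its mitochondria, and heme released from red cells is opened by heme oxygenase.

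The IREs are shown because they are sites through which some of these transcripts answer to iron. A further reason is that counts of mRNA do not show the translational control of the ferritins and ferroportin. GENCODE vM21 transcripts on GRCm38 were searched on the transcript strand for the letters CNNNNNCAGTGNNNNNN, in which the 5 bases before the loop pair with the 5 bases after it and G may pair with T. In 5′UTRs a match lay in 31 of 20899 coding genes (0.148%), of which 3 were among these genes. In 3′UTRs a match lay in 129 of 21022 coding genes (0.614%), of which 1 was among them. Each window below has 29 bases, with the loop in capitals.
Fth1, 5′UTR: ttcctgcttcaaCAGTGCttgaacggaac
Ftl1, 5′UTR: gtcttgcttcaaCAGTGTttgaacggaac
Slc40a1, 5′UTR: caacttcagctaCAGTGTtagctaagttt
Tfrc, 3′UTR, nearest to the coding sequence: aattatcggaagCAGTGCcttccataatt
Tfrc, 3′UTR, next: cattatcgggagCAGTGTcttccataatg
Tfrc, 3′UTR, next: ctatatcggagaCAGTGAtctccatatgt
Tfrc, 3′UTR, farthest: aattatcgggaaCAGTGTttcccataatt

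The Fth1 window lies in exon 1 at chr19:9982732-9982760 on the plus strand. The Ftl1 window lies in exon 1 at chr7:45459779-45459807 on the minus strand, and the Slc40a1 window in exon 1 at chr1:45925465-45925493 on the minus strand. The 4 Tfrc windows lie in exon 19 on the plus strand, at chr16:32631219-32631247, chr16:32631598-32631626, chr16:32631663-32631691 and chr16:32631710-32631738. A match is a description of the letters, and no match in the other 6 genes says only that these letters are not in their annotated UTRs. The match was in 4 of 5 annotated coding transcripts of Fth1, 1 of 2 of Ftl1 and 1 of 4 of Slc40a1. Each Tfrc match was in 1 of 3, and the counts are per gene. The MSC comparison below gave the 4 genes with a match in different directions. Slc40a1 was lower, Tfrc was higher, and the ferritin subunits were higher in every coculture without passing the test.

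Libraries held 4939874 to 9272984 counts for MKs alone and 5193949 to 12523616 for cocultures, and 3 counts corresponded to 0.283 to 0.660 CPM. CPM are counts scaled to a common library size, here with edgeR's TMM factors, and such floors cover counting error only. Replicate 3 of the cocultures stood apart, with 10735 genes holding a count against 13104 to 13193 in the other cocultures and 12406 to 12622 in MKs alone, and with the lowest TMM factor, 0.766. In this library 3905 short transcripts (180 to 2180 bases) lay a median of 0.33 above the other cocultures on the log2 scale, and 3905 long ones (3775 bases or more) had a median difference of -1.0. Ftl1, Fth1 and Hmox1 are in the short class and Tfrc and Ireb2 in the long class, and the part of transcript length in the results was not tested beyond a length correction.

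The 15 MK and platelet markers summed to 1904 to 2243 CPM in MKs alone and 1754 to 2353 CPM in cocultures, and only Gp6 was at 0, in replicate 3 of the cocultures. Neutrophil markers (10 genes) summed to 81779 to 82224 CPM in MKs alone and 3694 to 9798 CPM in cocultures, so the summed neutrophil markers exceeded the summed MK markers in every library. MSC markers (11 of 13 measured) summed to 36.0 to 45.1 CPM in MKs alone and 1406 to 4485 CPM in cocultures, and macrophage markers (11 genes) to 174 to 236 and 1149 to 1559 CPM. At least 1 of Pdgfra, Cxcl12, Kitl, Lepr and Col3a1 was at 0 in each library of MKs alone, and Lepr, Kitl and Postn were at 0 in replicate 3 of the cocultures. Eosinophil markers (6 genes) summed to 913 to 1649.9 CPM in MKs alone and 13.2 to 61.7 CPM in cocultures, and B cell markers (8 genes) to 851 to 899 and 60.9 to 225 CPM. Erythroid markers (7 of 10 measured) summed to 36.3 to 53.9 CPM in MKs alone, 93.3 CPM in coculture replicate 3 and 16.8 to 20.8 CPM in the other cocultures. Apart from the MK list, these lists differed between the groups or in replicate 3, and their part in each result below was not tested. In bulk RNA, fewer cells of a type and less RNA per cell cannot be told apart.

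A gene was called when its level differed at least 2-fold, edgeR's quasi-likelihood test gave an adjusted p no higher than 0.05, and its mean reached 1 CPM in either group. Of the 10 iron genes, 3 were called higher in cocultures (Tfrc, Slc11a1 and Slc11a2) and 2 lower (Slc40a1 and Ncoa4), and 5 were not called. Among all genes tested, 13.2% were called higher, 7.31% lower and 20.5% in either direction. The median log2 fold change of the 10 genes was 1.15, against 0.03 for all genes tested, with 7 above 0 and 3 below. Without coculture replicate 3 the median of the 10 lay between Steap3 (0.51) and Hmox1 (0.52), against 0.03 for all genes. With the length correction it lay between Hmox1 (0.56) and Fth1 (0.65), against -0.08. The cocultures did not overlap MKs alone for 4 genes that were higher (Ftl1, Fth1, Slc11a1 and Slc11a2) and 2 that were lower (Slc40a1 and Ncoa4), and 19.3% and 21.1% of all genes tested separated in these directions. With replicate 3 of the cocultures left out, 20.6% of 12267 genes tested were called higher and 15.4% lower, and the same 5 iron genes were called. Without MK alone replicate 2 or 3, only 3 of the 10 were called (Slc11a1, Slc40a1 and Ncoa4).

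**Figure D1:**
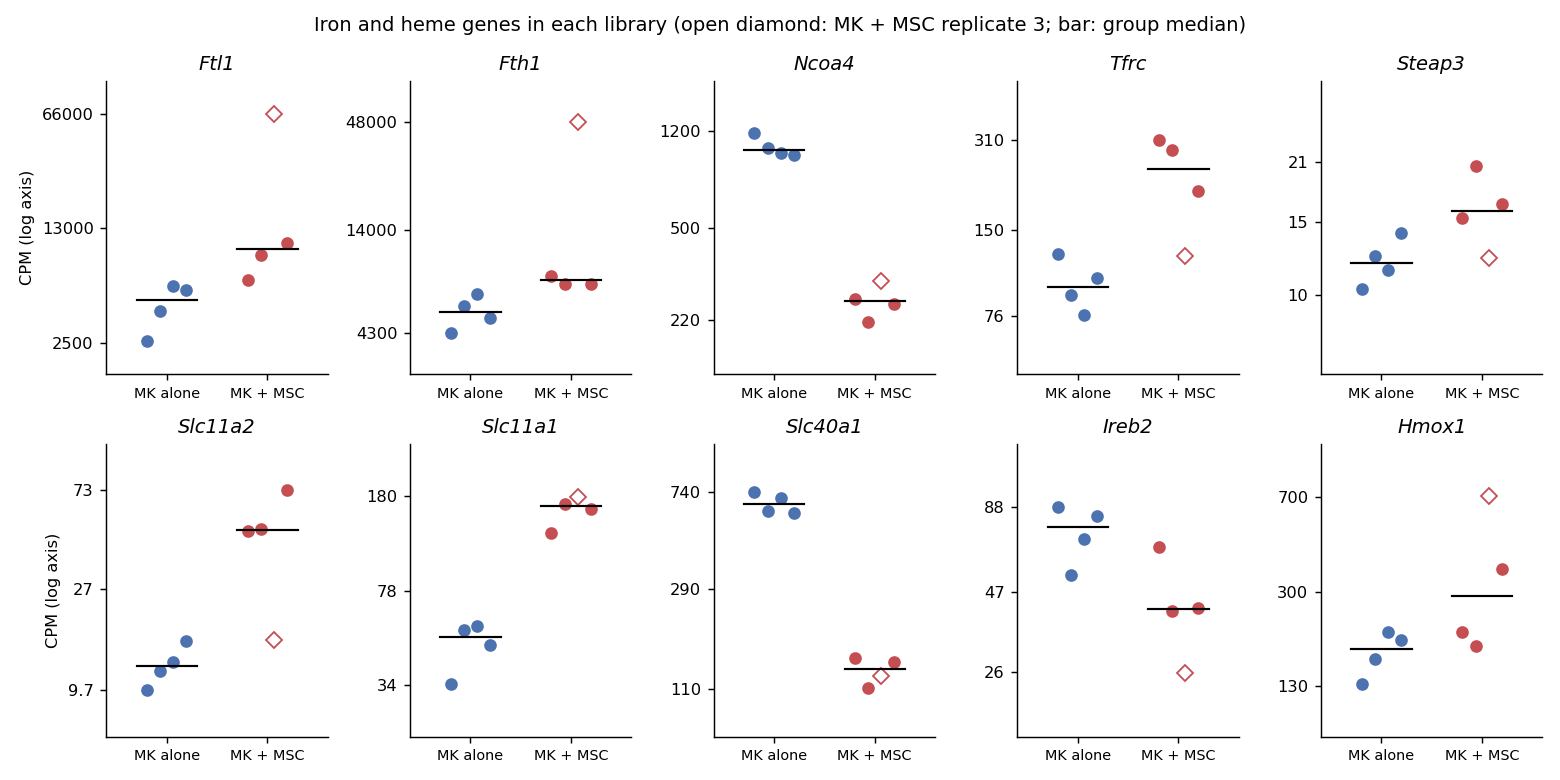
Level of each of the 10 iron and heme genes in each library, as CPM on a log axis, for MKs cultured alone and MKs cocultured with MSCs; points are libraries, bars are group medians and the open diamond is replicate 3 of the cocultures. Slc40a1 and Ncoa4 lay lower in every coculture, Slc11a1 lay higher in every one, and Ftl1, Fth1 and Hmox1 were highest in replicate 3 of the cocultures.

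**Figure D2:**
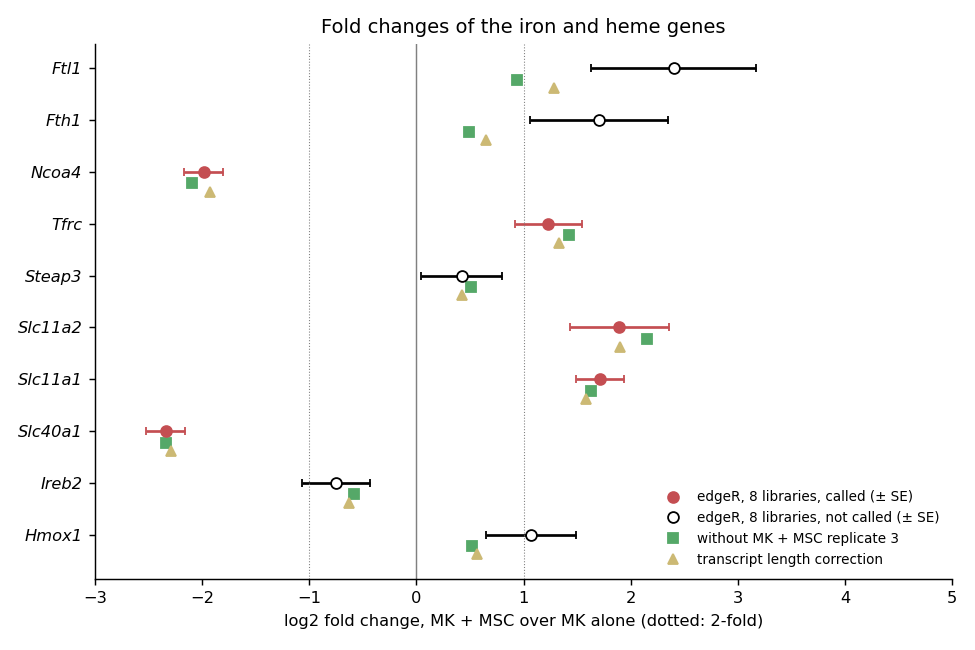
Log2 fold change of each gene in cocultures against MKs alone from all 8 libraries with the standard error as a bar (filled circles called, open circles not called), with replicate 3 of the cocultures left out (squares) and with the transcript length correction (triangles). Dotted lines mark a 2-fold change. Ftl1 went from 2.40 to 0.94 and Fth1 from 1.70 to 0.49 without that library, while Slc40a1 stayed at -2.34 and -2.33.

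Ferroportin, encoded by Slc40a1 (chr1:45908068-45926523, minus strand), had 742, 616, 703 and 604 CPM in MKs alone and 149, 110, 125 and 143 CPM in cocultures. Every coculture was below every library of MKs alone, and replicate 3 lay among the other cocultures. The mean fell from 666 ± 66.9 to 132 ± 17.4 CPM (SD, n = 4 each), which was 5.06-fold lower. The log2 fold change was -2.34 with a standard error of 0.18 (adjusted p = 5.05e-05), where the error was derived from the F statistic. It remained between -2.40 and -2.22 when each library was left out in turn. Neutrophil, eosinophil and B cell marker sums were also lower in every coculture, whereas MSC and macrophage marker sums were higher in every coculture.

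Ncoa4, the receptor that delivers ferritin to the autophagosome (chr14:32159865-32179855, plus strand), had 1171, 1029, 985 and 961 CPM in MKs alone. It had 265, 217, 312 and 255 CPM in cocultures. The groups were again fully separate, and replicate 3 was the highest coculture. The mean fell from 1037 ± 93.9 to 262 ± 39.3 CPM (SD, n = 4 each), a 3.95-fold lower level with a log2 fold change of -1.98 ± 0.18 (SE, adjusted p = 0.000113). Leaving out single libraries gave values from -2.10 to -1.86.

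Ftl1, the light subunit of ferritin (chr7:45457944-45459884, minus strand), had 2545, 3944, 5602 and 5295 CPM in MKs alone and 6161, 8791, 66383 and 10387 CPM in cocultures. The groups did not overlap, and replicate 3 of the cocultures was far above the other libraries. The means were 4347 ± 1400 and 22931 ± 29021 CPM (SD, n = 4 each), and 8446 ± 2134 CPM for the cocultures without replicate 3 (n = 3). The log2 fold change of 2.40 ± 0.77 (SE) was not called (adjusted p = 0.0543). Without replicate 3 of the cocultures it was 0.94 (adjusted p = 0.00574), under the 2-fold minimum, and without replicate 1 it was 2.72 and called (adjusted p = 0.0366). With a correction for transcript length it was 1.29.

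Fth1, the heavy subunit with the ferroxidase site (chr19:9980598-9985098, plus strand), had 4315, 5873, 6745 and 5094 CPM in MKs alone. In cocultures it had 8273, 7598, 48108 and 7598 CPM. The groups did not overlap, and the other 3 cocultures lay close together at 7823 ± 390 CPM (SD, n = 3). The log2 fold change was 1.70 ± 0.64 (SE, adjusted p = 0.0902), and 0.49 without replicate 3 of the cocultures (adjusted p = 0.0456). Neither value was called, and with a length correction the log2 fold change was 0.65.

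Both ferritin transcripts took 0.631%, 1.03%, 1.28% and 1.05% of all counts in MKs alone and 1.52%, 1.80%, 8.77% and 2.0% in cocultures. Ranked by counts per kilobase, Ftl1 stood 19th, 11th, 10th and 13th of all genes in MKs alone and 9th, 4th, 1st and 4th in cocultures. Fth1 stood 15th, 7th, 7th and 12th, and 5th, 5th, 2nd and 5th. Ferritin was thus among the 20 most abundant transcripts per length in every library. Reads of Ftl1 may be shared with its near-identical copy Ftl1-ps1, whose counts were 0.947% to 5.0% as many as those of Ftl1. This copy had 127, 91.5, 87.1 and 109 CPM in MKs alone and 119, 97.2, 1363 and 98.4 CPM in cocultures.

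**Figure D3:**
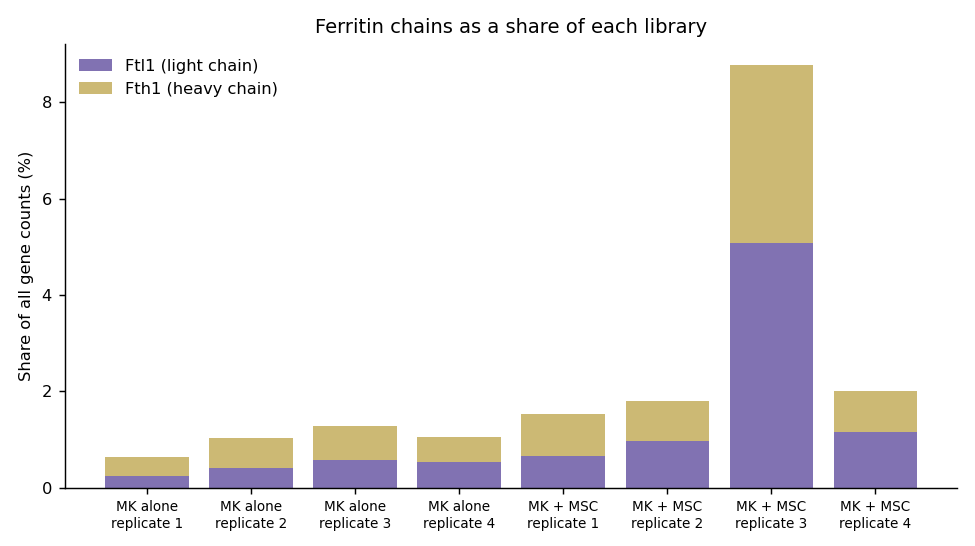
Share of all counts, in percent, taken by Ftl1 and by Fth1 in each of the 8 libraries, as stacked bars from 0. The shares add up to 0.631% to 1.28% in MKs alone, 1.52% to 2.0% in cocultures 1, 2 and 4, and 8.77% in coculture replicate 3.

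The transferrin receptor Tfrc (chr16:32608920-32632794, plus strand) had 124, 89.3, 76.2 and 102 CPM in MKs alone and 309, 284, 122 and 205 CPM in cocultures. Replicate 3 was the lowest coculture and fell within the range of MKs alone, and the other cocultures lay above it. The mean rose from 98.1 ± 20.5 to 230.2 ± 84.7 CPM (SD, n = 4 each). This was 2.35-fold, with a log2 fold change of 1.23 ± 0.31 (SE, adjusted p = 0.0209). The call was lost without MK alone replicate 2 (adjusted p = 0.0599), 3 (0.0701) or 4 (0.0627), or without coculture replicate 1 (0.0521), all of edgeR's test.

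Steap3, the endosomal ferrireductase that works beside the receptor (chr1:120190757-120272705, minus strand), had 10.3, 12.4, 11.5 and 14.1 CPM in MKs alone and 15.4, 20.5, 12.3 and 16.6 CPM in cocultures. The groups overlapped through replicate 3 of the cocultures. Its log2 fold change of 0.42 ± 0.38 (SE) was not called (adjusted p = 0.463).

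Slc11a2, the divalent metal transporter that moves iron out of endosomes (chr15:100387898-100425072, minus strand), had 9.68, 11.8, 12.8 and 15.9 CPM in MKs alone. In cocultures it had 48.2, 49.5, 16.1 and 72.9 CPM. The groups did not overlap, but replicate 3 lay just above the highest library of MKs alone. The mean rose from 12.5 ± 2.58 to 46.7 ± 23.4 CPM (SD, n = 4 each), 3.71-fold, with a log2 fold change of 1.89 ± 0.46 (SE, adjusted p = 0.0188). The call was lost without MK alone replicate 1 (adjusted p = 0.0635), 2 (0.0598) or 3 (0.0587), or without coculture replicate 4 (0.0549), each of edgeR's test.

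Slc11a1, the NRAMP1 transporter of phagocyte endosomes (chr1:74375195-74386062, plus strand), had 34.3, 55, 57.0 and 48.3 CPM in MKs alone and 131, 168, 179 and 161 CPM in cocultures. Every coculture was above every library of MKs alone, with replicate 3 the highest. The mean rose from 48.7 ± 10.3 to 160.0 ± 20.9 CPM (SD, n = 4 each). The difference was 3.28-fold, or 1.71 ± 0.22 in log2 (SE, adjusted p = 0.000776), and it was called with each library left out, at 1.56 to 1.81. Summed macrophage markers were higher in every coculture, as were summed MSC markers, and 9 of the 10 macrophage markers tested were called higher. The exception was Mertk, with 0.104 CPM in coculture replicate 3, and Fcgr1, at 0 in that library, was not tested.

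Ireb2, which encodes iron regulatory protein 2 (chr9:54863789-54912530, plus strand), had 87.5, 53.2, 69.5 and 82.2 CPM in MKs alone and 65.4, 40.9, 25.8 and 41.7 CPM in cocultures. The groups overlapped through coculture replicate 1, and replicate 3 was the lowest. The log2 fold change of -0.75 ± 0.32 (SE) was not called (adjusted p = 0.126).

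Hmox1, the inducible heme oxygenase (chr8:75093621-75100589, plus strand), had 132, 165, 210 and 195 CPM in MKs alone and 211, 186, 705 and 369 CPM in cocultures. Replicates 3 and 4 of the cocultures were above all libraries of MKs alone, replicate 1 lay level with the highest of them, and replicate 2 was within their range. The log2 fold change was 1.07 ± 0.42 (SE) and was not called (adjusted p = 0.0999). It was 0.52 without replicate 3 and 0.56 with the length correction.

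Levels of the genes were compared with each other per kilobase of transcript. In MKs alone the order of median CPM per kilobase was Fth1 (5903), Ftl1 (4772), Ncoa4 (301), Slc40a1 (196), Hmox1 (115), Slc11a1 (22.3), Tfrc (19.6), Ireb2 (13.1), Steap3 (4.08) and Slc11a2 (4.07). The neighbours Fth1 and Ftl1, Slc11a1 and Tfrc, and Steap3 and Slc11a2 overlapped between libraries, and the other neighbours did not. In cocultures the order was Ftl1 (9906), Fth1 (8542), Hmox1 (185), Ncoa4 (77.7), Slc11a1 (71.2), Tfrc (50.1), Slc40a1 (39.7), Slc11a2 (16.1), Ireb2 (7.15) and Steap3 (5.46). There the ferritin subunits overlapped, as did each neighbour from Ncoa4 to Slc40a1 and from Slc11a2 to Steap3. Ferritin was far above the transporters in both groups, and Slc40a1 went from above to beside Tfrc.

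**Figure D4:**
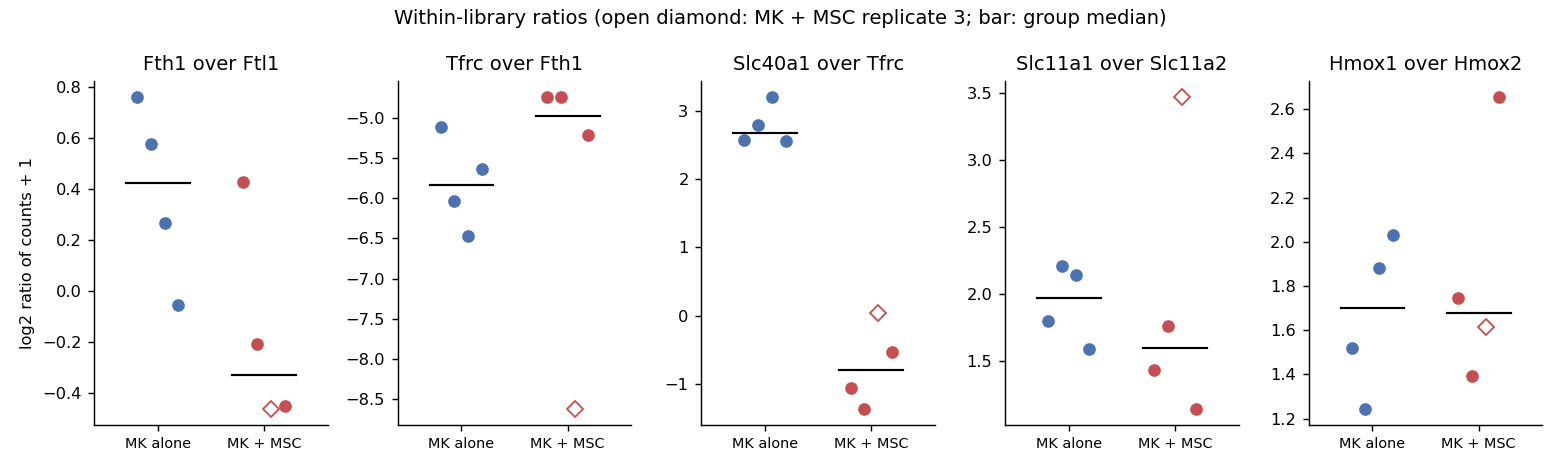
Log2 ratios of pairs of genes within each library, from counts plus 1, with group medians as bars and replicate 3 of the cocultures as an open diamond. Slc40a1 over Tfrc is 2.56 to 3.20 in MKs alone and -1.36 to 0.04 in cocultures, while the other 4 ratios overlap between groups.

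Ratios within a library do not depend on its scaling, and 5 were tested by a two-sided exact permutation test, whose smallest possible p is 0.0286. The ratio of exporter to uptake receptor per kilobase (Slc40a1 over Tfrc) was 8.65, 9.99, 13.4 and 8.55 in MKs alone and 0.697, 0.564, 1.49 and 1.01 in cocultures. The groups did not overlap. On raw counts, without the length scaling, the mean log2 ratio fell from 2.78 ± 0.30 to -0.73 ± 0.62 (SD, n = 4 each), an 11.4-fold lower ratio (exact permutation p = 0.0286, adjusted over 5 ratios 0.143). Fth1 over Ftl1 went from 0.39 ± 0.36 to -0.18 ± 0.42 in log2 (exact permutation p = 0.114, adjusted 0.286). Tfrc over Fth1 was -5.81 ± 0.58 and -5.83 ± 1.88 (exact permutation p = 1), with a difference of -0.02 that became 0.92 without coculture replicate 3. Slc11a1 over Slc11a2 was 1.94 ± 0.29 and 1.96 ± 1.04 (exact permutation p = 1), with a difference of 0.02 that became -0.49 without coculture replicate 3, whose ratio was 3.47 against 1.14 to 1.76 in the others. Hmox1 over the constitutive Hmox2 was 1.67 ± 0.36 and 1.85 ± 0.56 (exact permutation p = 0.657). After adjustment no ratio passed 0.05.

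The genes around these 10 were read from 8 lists of the pathway, with 96 genes of which 83 were in the table and 79 were tested. The other 13 were not analysed here. In the uptake list, 4 of 10 tested genes were called higher, 1 was called lower and 5 were not called, with a median log2 fold change of 0.68. Tfr2, the second transferrin receptor, fell from 26.7 ± 6.29 to 3.89 ± 2.42 CPM (SD, n = 4 each), a call that was lost with any single library left out except coculture replicate 3 (adjusted p = 0.0516 to 0.0780). Steap1, a gene of the Steap3 family, had 0 counts in MKs alone and 27.8 to 61.4 CPM in cocultures. Set against 3 counts in each library, Steap1 was at least 113-fold higher in cocultures. Its relative Steap2 had 0 to 0.660 CPM in MKs alone and 48.8 to 209 CPM in cocultures. The summed MSC markers were likewise at most 45.1 CPM in MKs alone and at least 1406 CPM in cocultures. The lysosomal iron channel gene Mcoln1 rose from 20.1 ± 4.95 to 47.9 ± 21.6 CPM (SD, n = 4 each, adjusted p = 0.0468). That call was lost without any 1 library of MKs alone or coculture replicate 4 (adjusted p up to 0.13), and without coculture replicate 3 the log2 fold change was 0.91. Snx3, a recycling factor of the receptor, had a log2 fold change of 0.47 that was not called.

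Among chaperones and sensors, 1 of 8 genes was called higher and 1 lower, with a median log2 fold change of -0.02. Fbxl5, the iron-sensing subunit of the ligase that degrades IREB2, fell from 276 ± 12.6 to 93.8 ± 10.4 CPM (SD, n = 4 each), a log2 fold change of -1.56 ± 0.16 (SE, adjusted p = 0.000228). Epas1, the hypoxia factor whose mRNA is under iron control, rose from 0.812 ± 0.412 to 8.31 ± 3.74 CPM. The iron chaperones Pcbp1 (0.35) and Pcbp2 (-0.21) had log2 fold changes that were not called. In the export and hepcidin list none of 5 genes was called, with a median log2 fold change of 0.64. Smad4, Furin and Hfe had values of 0.09, 0.64 and 0.75, all not called.

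In the list for secreted iron and heme binding, 3 of 4 genes tested were called lower and none higher, with a median log2 fold change of -1.91. Bdh2, picked with its values in view, was the only 1 of the 4 above 0. Its log2 fold change of 3.34 was not called (edgeR adjusted p = 0.0704) and enters this median. Lactoferrin (Ltf) fell from 4017 ± 979 to 602 ± 103 CPM (SD, n = 4 each, adjusted p = 0.000125). The siderophore binder Lcn2 fell from 1070 ± 207 to 170.4 ± 56.0 CPM, and the hemoglobin binder Hp from 343 ± 97.6 to 153 ± 45.2 CPM with overlapping groups. The Hp call was lost without MK alone replicate 2, 3 or 4 or coculture replicate 1 or 2 (adjusted p = 0.0507 to 0.0677). Ltf, Lcn2 and Hp are also granulocyte products, and all 10 neutrophil markers were called lower, with a median log2 fold change of -3.45.

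In heme transport and breakdown, 4 of 11 genes were called higher and none lower, with a median log2 fold change of 0.96. Lrp1, the receptor for heme bound to hemopexin, rose from 7.22 ± 2.31 to 216.8 ± 38.6 CPM (SD, n = 4 each), a log2 fold change of 4.91 ± 0.32 (SE, adjusted p = 2.55e-05). Slc48a1, a lysosomal heme transporter gene, had 168 ± 42.4 and 327 ± 151 CPM and was not called (adjusted p = 0.0690). The biliverdin reductase gene Blvrb, which acts after heme oxygenase and was picked with its values in view, had 15.6 to 22.7 CPM in MKs alone, 43.3 to 72.9 CPM in cocultures 1, 2 and 4 and 623 CPM in coculture replicate 3. Its log2 fold change of 3.45 was 1.71 and still called without that library, and the call was lost without any 1 library of MKs alone (adjusted p = 0.0604 to 0.0735). Heme synthesis had no called gene among 11, with a median of 0.73 and with Alas1, its first enzyme, at -0.26. Fech (0.72), which inserts the iron in the last step, was not called either.

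In the NRF2 and BACH1 list, whose factors control Hmox1 and both ferritin genes, 4 of 14 genes were called higher and 3 lower, with a median log2 fold change of 0.30. The peroxiredoxin gene Prdx1 rose from 774 ± 63.6 to 12021 ± 7364 CPM (SD, n = 4 each, adjusted p = 0.000267). Gclm, for glutathione synthesis, fell from 769 ± 83.3 to 291 ± 113 CPM, and the cystine transporter gene Slc7a11 from 677 ± 159 to 150.5 ± 49.4 CPM. Bach1, the heme-binding repressor of Hmox1, was picked with its values in view and fell from 65.9 ± 19.7 to 18.6 ± 5.83 CPM (adjusted p = 0.00624). Genes of this list thus moved in both directions. In iron-sulfur cluster assembly, 2 of 16 genes were called higher and 1 lower, with a median log2 fold change of 0.36 that became -0.14 with the length correction. The mitochondrial chaperone gene Hspa9 rose from 290 ± 46.8 to 715 ± 239 CPM and Glrx5 from 51.1 ± 7.35 to 118.2 ± 22.9 CPM, while the cochaperone gene Hscb fell from 41.7 ± 6.40 to 20.3 ± 2.42 CPM. The Hscb call was lost with any single library left out except coculture replicate 3 (adjusted p = 0.0592 to 0.0873).

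**Figure D5:**
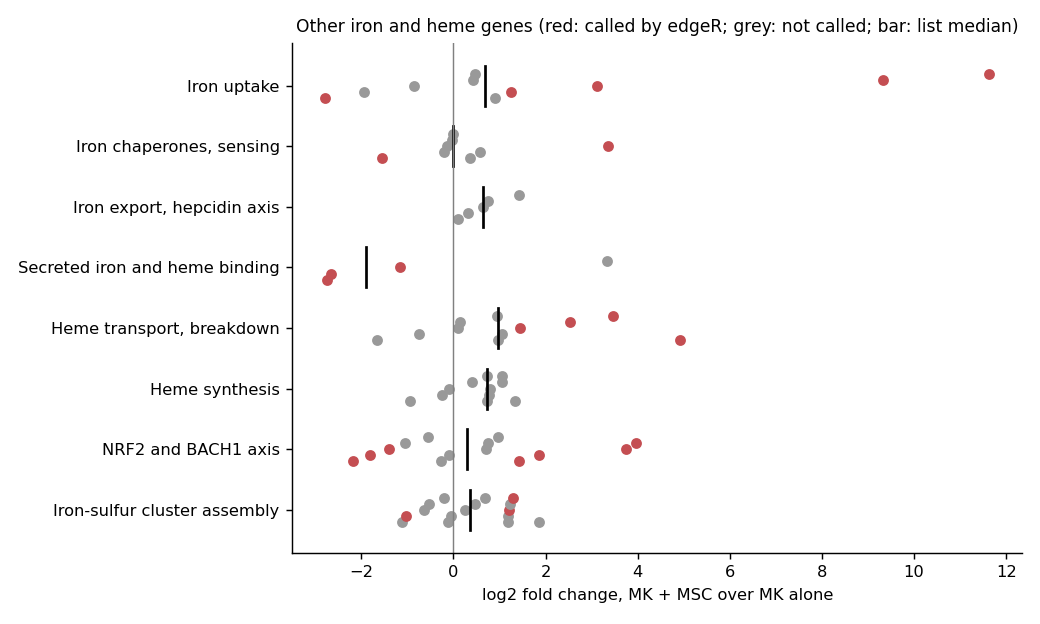
Log2 fold change of each tested gene in the 8 iron and heme lists, cocultures against MKs alone, with called genes in red, other genes in grey and the median of each list as a bar. The secreted binding list has the lowest median, -1.91, with Bdh2 in it at 3.34, and no gene is called in the hepcidin and heme synthesis lists.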

How the data were processed

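The authors deposited 1 table of raw counts per gene for 8 bulk libraries, as whole numbers without normalization. The methods name fastp filtering and kallisto on mm10, and the submitters' processing notes name kallisto and DESeq2, with versions not given in the sources used here. How counts were summed over transcripts and whether strand was used is not given in the sources used here, so counts of near-identical copies, and of genes that overlap on either strand, are uncertain. The lowest gene total was 11 counts.

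Groups and replicate numbers came from the labels. The fit used edgeR 4.0.16 under R 4.3.3 with TMM factors, the filterByExpr filter and the robust quasi-likelihood F test over all 8 libraries without covariates, and Benjamini-Hochberg adjustment over 11722 genes. The calling cutoffs followed the study, with CPM in place of TPM, and the standard error was the absolute log2 fold change over the square root of F. Ratios used log2 of counts plus 1 and permutation tests from scipy 1.17.1 in Python 3.11.15. Transcript lengths and iron-responsive elements came from GENCODE vM21 on GRCm38, where 13374 of 13387 genes had a length. Scripts were tested on simulated data.

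The members and lists were chosen with earlier results of these data known. The genes named were the 10 members and, from each list, the 3 with the highest mean CPM and the called gene with the largest change in each direction. For 1 gene chosen this way no value is reported here. The methods of the study put a batch term in DESeq2, but no source used here assigns a library to a batch, so a fit with batch was not made and its part was not tested. Alternatives were DESeq2 1.42.0, other scalings and filters, a replicate block, a length correction (loess in limma 3.58.1) and leaving out each of the 8 libraries, and replicate 3 of both groups, which was added after seeing the data. Reported values use every library unless said. The floors cover counting error only, and reads carry no molecular identifiers. The SDs and standard errors include the spread between libraries.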

Additional observations from a re-analysis of the deposited data

Results flagged for a closer look

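In 44 sets of 4 libraries (the 10 genes, 5 ratios and 7 marker lists in each group), a library was noted where its gap to the nearest other took a share of the range of its group above Dixon's critical value. Chance gives such a gap in about 1 in 20 sets, or 2.2 of these. The sets share libraries, and the ratios share genes with the single-gene sets, so they are not independent. The number found was therefore not tested against 2.2. There were 7, of which 6 were in replicate 3 of the cocultures. Fth1 in that library stood at 15.55 as log2(CPM + 1), against 12.89 to 13.01 in the other cocultures. The log2 ratio of Tfrc over Fth1 there was -8.62, against -5.21 to -4.74. The same library was far from the others in the mean log2(CPM + 1) of 4 marker lists, with MSC markers at 4.29 (others 6.68 to 6.97), neutrophil markers at 6.74 (8.07 to 8.20), B cell markers at 2.06 (3.99 to 4.06) and erythroid markers at 2.20 (1.41 to 1.47). In replicate 2 of the cocultures, macrophage markers stood at 6.21, against 5.46 to 5.58 in the others. Their part in the levels of the iron genes was not tested.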

How the results depend on the processing

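The 10 genes gave 190 values under alternatives, of which 174 kept their direction and side of the call, 10 lost a call, 6 gained one and 0 changed direction. Ftl1 was called with library size only (2.16), marker scaling (3.28), at least 10 counts in every library (2.11), the length correction with the replicate block (1.14) and without replicate 3 of both groups (1.08), and DESeq2 gave no adjusted p for either ferritin. Same-numbered libraries correlated at 0.37, 0.02, 0.15 and 0.03 in their deviations from the group means, not all above 0.1, so the numbers were not taken as pairs; numbers 1 and 3 correlated best with their own number and 2 and 4 did not. With the replicate block 1669 genes were called, among them 4 of the 10 (2 higher, 2 lower), Slc11a2 missing the threshold (1.75, adjusted p = 0.0678). All called genes numbered 2401 and ranged from 1634 to 4420 with a library left out (1071 to 2530 higher, 539 to 1890 lower), the highest without coculture replicate 3. Without replicate 3 of both groups there were 4419 (2569 higher, 1850 lower). Genes called higher were 997 with the length correction and block, and marker scaling gave 2106 higher and 500 lower against 1544 and 857. The 10 genes gave 3 to 5 calls with a library left out, 1 to 3 of them higher. The median of all genes (0.03) was 0.51 with marker scaling, -0.14 with the block, -0.08 with the length correction and -0.24 with both.

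The median of the uptake list (0.68) was 1.15 with marker scaling, 0.30 with the block, 0.41 with the length correction, 0.096 with both, 1.06 without replicate 3 of both groups and 0.64 to 1.08 with a library left out. Under marker scaling the medians were 0.50 for chaperones, -1.39 for the secreted list, 1.62 for heme transport, 1.34 for heme synthesis, 1.0 for NRF2 and BACH1 and 0.89 for iron-sulfur assembly. With at least 10 counts in every library they were -2.81 (secreted), -0.29 (NRF2 and BACH1) and 0.22 (iron-sulfur), and without replicate 3 of both groups -2.74, -0.31 and 0.17. The iron-sulfur median turned to -0.14 with the length correction and -0.23 with block and length correction, while heme transport was 0.60 with both. Leaving out a library gave -2.79 to -1.80 (secreted), 0.57 to 1.12 (heme transport), 0.23 to 0.88 (heme synthesis), -0.25 to 0.50 (NRF2 and BACH1) and 0.078 to 0.46 (iron-sulfur). The cause of these shifts was not tested. Ratios with a library left out, or paired, are values with no test, since the smallest p is then 0.0571 or 0.125.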
